A study of Paralichthys olivaceus with 24 samples.

Results

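The last heating step of skeletal muscle in the olive flounder (Paralichthys olivaceus, a farmed flatfish) is described here, as the library at 28 °C set against the library at 23 °C. Members are all genes of the deposited expression table whose mean over these 2 libraries was at least 1 RPKM, and they numbered 4070 of the 11646 genes with values. RPKM is a read number corrected for the length of the transcript and for the size of the library, so levels can be compared between genes. The labels list 24 samples from gill, liver and muscle at 12, 18, 23 and 28 °C, in 2 series marked A and C in the sample titles, and the table covers the muscle samples of series C. All fish were 9 months old and came from a stock of 120 animals, of which 15 went into each of 8 treatment groups that were first adapted to 12 °C water. In the acute regime fish were moved stepwise into warmer water every 3 h, and in the chronic regime the water was warmed by 3 °C per h and then held for 20 h or longer. The labels leave unstated which letter stands for which regime and how many fish a library holds. Sequencing was described as done in duplicate, but the table has 1 column per temperature, called a library here, so no value below has a replicate, no difference has an error estimate and none was tested.

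Cells that are warmed beyond their usual range make heat shock proteins, chaperones that hold or refold damaged proteins in the cytosol. A related response in the endoplasmic reticulum, the compartment where secreted proteins are folded, raises its own chaperones and slows the loading of new proteins. In muscle, dedicated chaperones also fold myosin and keep the sarcomere, the contractile unit, in order.

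Folds are log2((RPKM at 28 °C + 1)/(RPKM at 23 °C + 1)). The added 1 makes the folds of weakly expressed genes too small. A gene counts as higher or lower here when this fold was at least 2-fold in that direction. Of the 4070 members, 1450 (35.6%) were higher at 28 °C and 321 (7.89%) were lower, and the median log2 fold over all members was 0.47. The minimum on the mean admits genes through 1 library alone: 492 of the 1450 higher members lay under 1 RPKM at 23 °C and 87 of the 321 lower members under 1 RPKM at 28 °C. Large folds lay almost wholly on the higher side. Beyond 4-fold lay 394 higher and 25 lower members, with 123 and 4 at 8-fold, 47 and 1 at 16-fold, and 22 and 0 at 32-fold. The share of higher members was 27.3% of the 2605 members with a mean between 1 and 5 RPKM and 47.9% of 1067 between 5 and 20 RPKM. It was 56.3% of 332 between 20 and 100 RPKM and 60.6% of 66 above that. The mean contains the 28 °C value, so a high value there raises both the mean and the fold. The added 1 also shrinks folds most at low levels, so this rise in share is partly built in.

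The split between higher and lower members depended on the scaling of the 2 libraries. The median RPKM ratio of members above 0 in both libraries was 1.57, or 0.65 on the log2 scale. With this median set to 1, the counts became 732 higher (18%) and 817 lower (20.1%), together 38.1% of the members against 43.5% as deposited, and higher genes made up 47.3% of those counted instead of 81.9%. With the constants contained in the authors' comparison columns, which lower the 28 °C values by a factor of 0.716, the counts were 906 higher (22.3%) and 667 lower (16.4%), together 38.6% of the members, of which 57.6% were higher. Below, "after median scaling" refers to the first of these alternatives, and a list's place is read against the median of all members. The table holds only genes that the authors found at least 2-fold from 12 °C in 1 or more comparisons, and 3568 of the 4070 members (87.7%) meet this through the 28 °C library. The shares above are therefore not shares of the muscle transcriptome, and the median of the members need not be a level that stayed fixed.

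**Figure D1:**
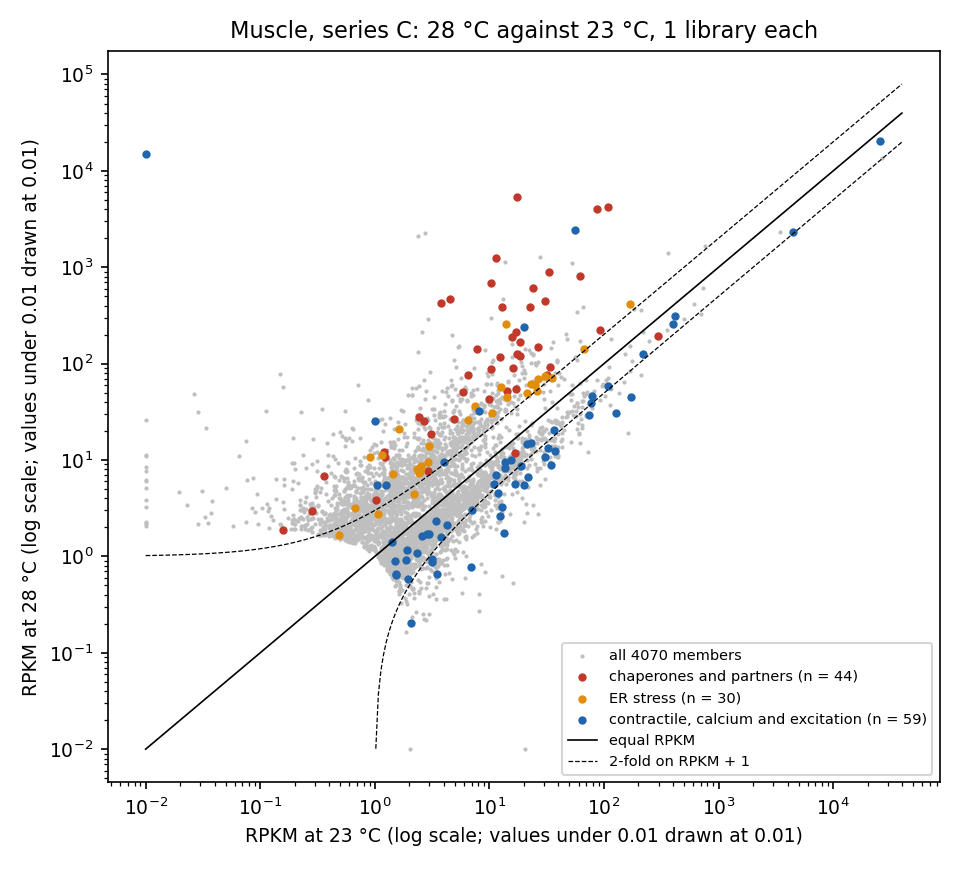
RPKM of each of the 4070 members at 23 °C (horizontal) and 28 °C (vertical), both on log scales, 1 point per gene and 1 library per axis, with the line of equal values and dashed lines at 2-fold on RPKM + 1. Chaperone genes lie far above the line, with hspa1b at 17.6 and 5326 RPKM, while most contractile, calcium and excitation genes lie below it; atp2a1l, listed at 0 at 23 °C, stands alone at the upper left.

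Both libraries carried abundant muscle transcripts. The fast myosin light chain gene mylpf was at 25861 RPKM at 23 °C against 20633 RPKM at 28 °C, and the calcium-buffering parvalbumin gene pvalb1 at 4481 and 2336 RPKM. Of the 42 listed muscle marker symbols 7 have rows in the selected table, and 6 of these 7 had negative folds. The seventh is the calcium pump gene atp2a1l, listed at 0 at 23 °C, compared with 15859, 15287 and 14940 RPKM at 12, 18 and 28 °C. Such a 0 can be a failed estimate, so no fold is given for it. Among the rows that mark other tissues, liver plasma protein genes differed most between the libraries. Their 69 rows summed to 120.8 RPKM at 23 °C against 698.7 RPKM at 28 °C, with 163.6 and 5934 RPKM at 12 and 18 °C. Of 41 liver markers among the members 35 were higher and 0 lower, although 18 of the 41 lay under 1 RPKM at 23 °C and met the minimum through the 28 °C library. The apolipoprotein genes apoa4 and apoa2 were at 18.3 and 10.5 RPKM at 23 °C against 133.6 and 78.1 RPKM at 28 °C, and the antimicrobial peptide gene leap2 at 4.65 and 58.7 RPKM. At 18 °C apoa4 and apoa2 had their highest values, 1544 and 991.3 RPKM, whereas leap2 was at 17.7 RPKM there and was highest at 28 °C. The 7 exocrine pancreas rows summed to 20.3 and 55.4 RPKM, with 6 of 6 members higher as deposited and 0 of 6 after median scaling. White blood cell markers summed to 18.1 and 82.2 RPKM over 23 rows, with 9 of 12 members higher (5 of 12 after median scaling), 7 of the 12 being under 1 RPKM at 23 °C. Sums of red cell markers (232.1 and 136.3 RPKM), skin and gill markers (50.6 and 43.3 RPKM) and vessel and nerve markers (39.1 and 28.4 RPKM) were smaller at 28 °C. The red cell list had 2 members, ank1 (174.3 and 107.1 RPKM) and nt5c3a (57.4 and 28.6 RPKM), so its sum rests almost wholly on them. No haemoglobin gene was a member, and whether these 2 genes stand for red cells in muscle was not tested. In the skin and gill sum krt94 alone stood at 43.1 and 28.2 RPKM, while 3 of the 4 members had positive folds. The fibroblast sums were 32.4 and 25.8 RPKM and the fat cell sums 17.9 and 19.2 RPKM. Listed at 0 at 23 °C were 2 liver rows, 1 white cell row and 3 skin and gill rows, and no row of these lists was at 0 at 28 °C. In bulk tissue, more cells of a type and more RNA per cell cannot be told apart, and the part of these markers in the results was not tested. Without the liver and pancreas lists 1409 members were higher and 321 lower, and without genes that were at least 2-fold higher at 18 °C than at both 12 and 23 °C the numbers were 1345 and 321.

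**Figure D2:**
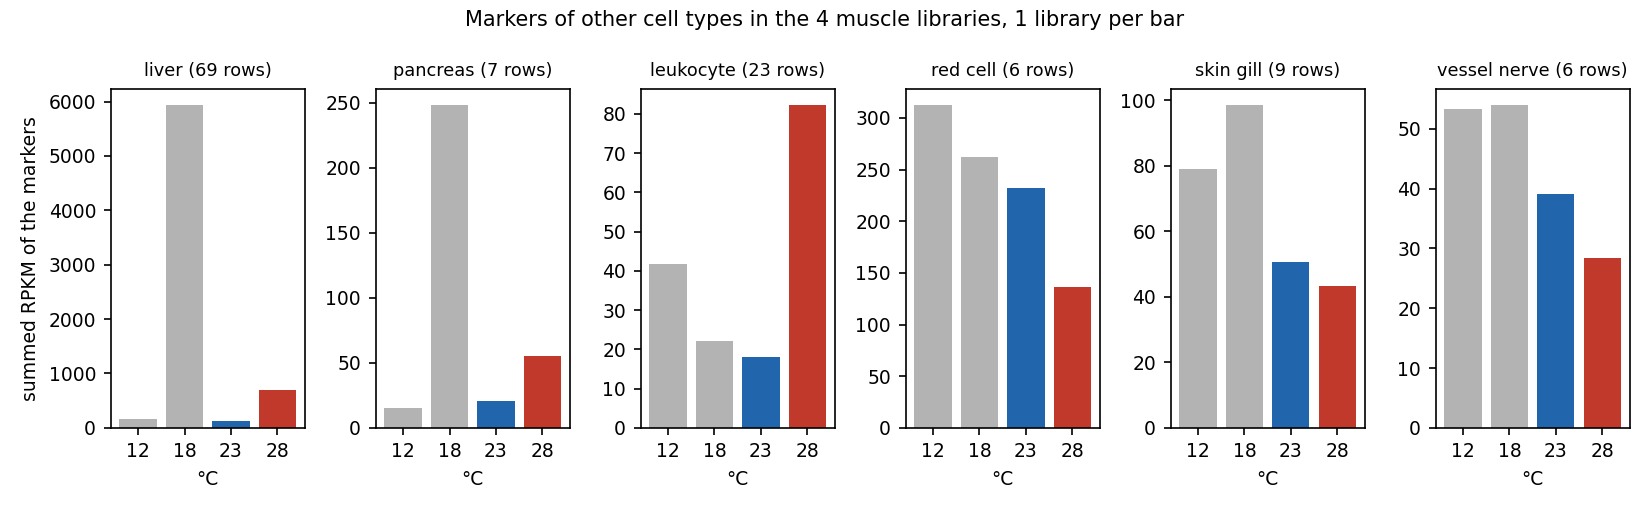
Summed RPKM of the marker genes of 6 other tissues or cell types (vertical, from 0, a separate scale in each panel) in the 4 muscle libraries (horizontal, °C), 1 library per bar, with 23 °C in blue and 28 °C in red. Liver and pancreas markers peaked at 18 °C at 5934 and 248.3 RPKM, and white cell markers were highest at 28 °C, at 82.2 RPKM. The red cell sum rests mainly on ank1 and nt5c3a.

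Chaperones and their partners formed the group with the largest folds. Over the 5 lists of hsp70 relatives, hsp90 relatives, small heat shock proteins, cochaperones and chaperonins, 42 of 44 members were higher at 28 °C, 0 were lower, and the same 42 had their highest value of the 4 libraries at 28 °C. In that order the selected table holds 7, 3, 7, 26 and 5 rows, against 11, 5, 7, 40 and 19 matching RefSeq genes. These shares are therefore shares of genes already selected for a difference from 12 °C. The summed RPKM of these lists was 1053, 1120 and 1136 at 12, 18 and 23 °C and 22297 at 28 °C. Within this narrow range over the cooler libraries the lists differed. The hsp90 sum was 32.9, 71.1 and 129.8 RPKM at 12, 18 and 23 °C, and the hsp70 sum 35.0, 45.8 and 68.1 RPKM. The small heat shock protein sum was 514.8, 581.2 and 469.7 RPKM. For cochaperones it was 323.4, 293.6 and 324.9 RPKM, and for chaperonins 147, 127.8 and 143.2 RPKM. In 36 of the 44 members the 12, 18 and 23 °C values lay within 2-fold of one another on RPKM + 1. The remaining 2 members, hspb6 and clpx, had negative folds.

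Within the hsp70 family, whose members bind stretches of unfolded protein, 7 of 7 members were higher (median log2 fold 2.63, and 6 of 7 after median scaling), of which hspa13 and hspa4l met the minimum through the 28 °C library. The inducible gene hspa1b was at 17.6 RPKM at 23 °C against 5326 RPKM at 28 °C. Its log2 fold of 8.16 was the highest of any gene that has a symbol and is above 0 in both libraries. Its 12 and 18 °C values were 1.68 and 8.33 RPKM, so each warmer library was above the one before. The hsp110-type exchange factor genes hspa4a and hspa4 were at 12.8 and 17.5 RPKM at 23 °C against 390.5 and 126.5 RPKM at 28 °C. The mitochondrial family member hspa9 was at 18.5 and 119.2 RPKM (2.63). The endoplasmic reticulum relatives hyou1 and hspa13 were at 1.21 and 0.361 RPKM at 23 °C against 11.97 and 6.87 RPKM at 28 °C. A further relative there, hspa5, is not in this list or its counts and is described with the endoplasmic reticulum stress genes. The lowest fold in the family was that of hspa4l, at 0.157 and 1.90 RPKM (1.33).

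All 3 members of the hsp90 family, chaperones that complete the folding of kinases and receptors, were higher (median 2.89, and 3 of 3 after median scaling). The cytosolic hsp90aa1.1 was at 107.97 RPKM at 23 °C against 4188 RPKM at 28 °C (5.26), and its neighbour in name hsp90aa1.2 at 5.89 and 50.2 RPKM (2.89). The endoplasmic reticulum form hsp90b1 was at 15.9 and 91.1 RPKM (2.44). Reads of near-identical hsp70 and hsp90 copies may be shared in a way that the sources used here do not give, so the split between copies is uncertain.

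Small heat shock proteins hold unfolding proteins in a soluble state, and 5 of their 6 members were higher (median 3.34, and 4 higher and 1 lower after median scaling). The gene hspb1 was at 86.5 and 3999 RPKM (5.52), hspb9l at 10.3 and 691.8 RPKM (5.94) and hspb8, the partner of bag3, at 61.2 and 815.4 RPKM (3.71). Lower in level were hspb9 (10.4 and 88.3 RPKM) and hspb7, a heart and muscle form (2.91 and 7.73 RPKM, 1.16). In contrast to these, hspb6 was at 298.5 and 193.5 RPKM (-0.62), after 367.9 and 431.8 RPKM at 12 and 18 °C. It was the most abundant small heat shock transcript of the list at 23 °C and the fourth at 28 °C, behind hspb1, hspb8 and hspb9l.

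Cochaperones, which load, release or redirect the clients of hsp70 and hsp90, had 23 of 23 members higher (median 3.06, and 19 of 23 after median scaling), of which 1, dnajb5 (0.282 and 2.98 RPKM), met the minimum through the 28 °C library. The first was bag3, an exchange factor that steers damaged muscle proteins to autophagy, at 11.5 RPKM at 23 °C against 1241 RPKM at 28 °C (6.63). Its 12 and 18 °C values of 20.9 and 13.4 RPKM were above that at 23 °C. Close behind were the hsp40 gene dnajb1b (3.80 and 421.9 RPKM, 6.46) and the exchange factor gene hspbp1 (4.49 and 464.3 RPKM, 6.4). Among further hsp40 genes, which deliver clients to hsp70, dnajb4 was at 30.7 and 449.2 RPKM, dnajb2 at 17.2 and 211.8 RPKM, dnajb1a at 2.43 and 27.7 RPKM and dnaja1 at 3.10 and 18.5 RPKM. The symbol dnaja, which is not in the list, had values of 13.1 and 466.9 RPKM (5.06). Partners of hsp90 included fkbp4 at 24.2 and 611.2 RPKM (4.6), the activator ahsa1 at 22.5 and 387.1 RPKM (4.04), the p23 gene ptges3 at 15.8 and 188.4 RPKM (3.49), the adaptor stip1 at 26.6 and 150.1 RPKM (2.45) and the kinase adaptor cdc37 at 9.83 and 43.1 RPKM (2.03). The smallest folds of the list were those of sugt1 (31.7 and 76.5 RPKM, 1.25), ppp5c (1.03 and 3.89 RPKM, 1.27) and st13 (33.85 and 91.7 RPKM, 1.41). A different order of the cooler libraries was found for fkbp5, a cortisol-inducible hsp90 partner, at 47.2, 27.8, 17.1 and 54.4 RPKM from 12 to 28 °C. Its 28 °C value was thus near that at 12 °C, whereas those of bag3 and dnajb1b were far above all 3 cooler values.

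The pair of mitochondrial chaperonin genes was higher together, with hspd1 at 12.3 and 115.8 RPKM (3.14) and hspe1 at 18.6 and 168.8 RPKM (3.12). The mitochondrial protease gene lonp1 was at 2.68 and 25.7 RPKM (2.86), and the cytosolic chaperonin subunit gene cct6a at 93.05 and 222.3 RPKM (1.25). The mitochondrial unfoldase gene clpx was at 16.6 and 11.9 RPKM (-0.44). Of the transcription factors of the response, hsf4 and hsf5 are the rows in the selected table, and both lay under 0.2 RPKM in both libraries, so no heat shock factor was a member.

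**Figure D3:**
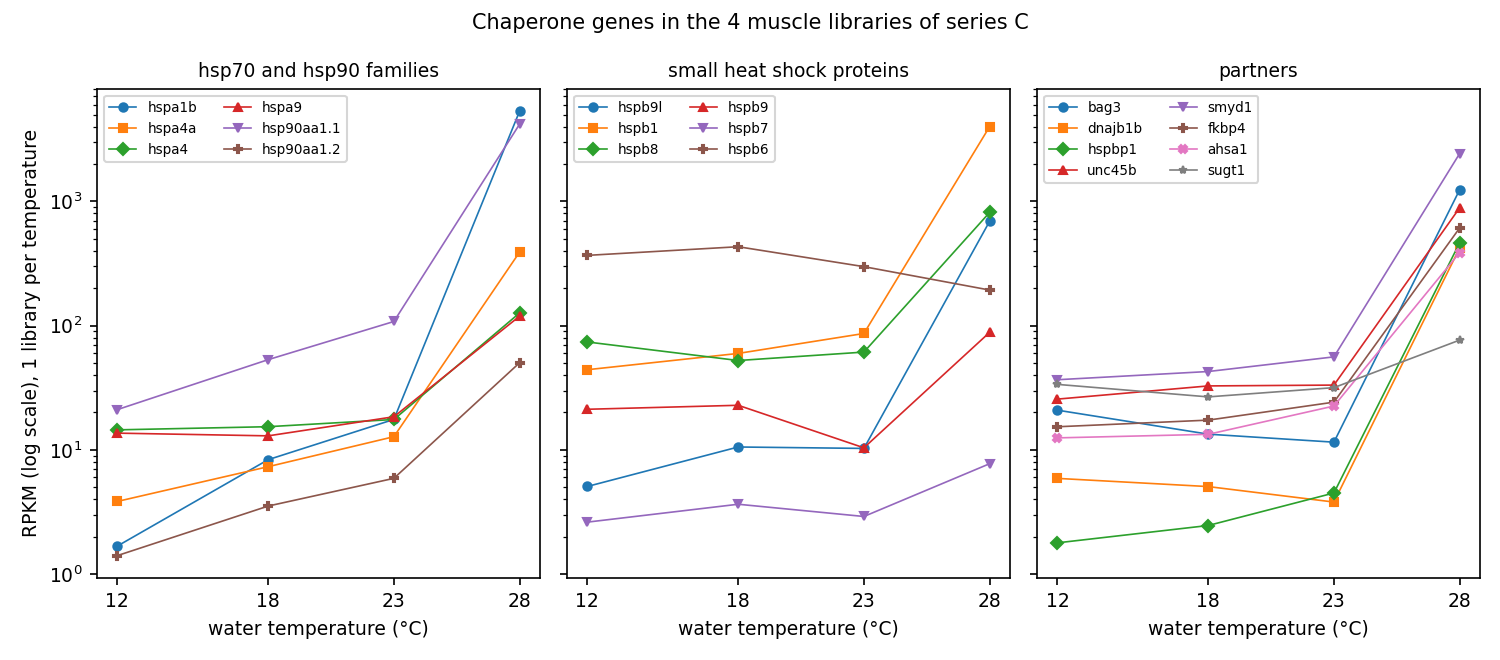
RPKM (vertical, log scale) of chaperone and partner genes at 12, 18, 23 and 28 °C (horizontal), 1 library per point, lines joining the values of a gene. In all but hspb6 the 28 °C value is the highest, as for hsp90aa1.1 at 4188 RPKM, and the step from 23 to 28 °C is the steepest of the 3.

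The contractile list held both large positive and large negative folds. The myosin chaperone unc45b was at 33.2 RPKM at 23 °C against 888 RPKM at 28 °C (4.70), and smyd1, a methyltransferase that works with it, at 56.0 and 2429 RPKM (5.41). The thin filament nucleator lmod3 was at 19.9 and 241.7 RPKM (3.54), the actin-binding repair protein gene xirp1 at 1.01 and 25.5 RPKM (3.72), the stretch-responsive ankrd1 at 8.15 and 32.35 RPKM (1.87) and the sarcomere scaffold gene klhl41 at 1.05 and 5.51 RPKM (1.67). These 6 genes and fhl1a (4.0 and 9.45 RPKM) were the 7 higher members of a list of 32, in which 11 were lower (18 after median scaling) and the median fold was -0.62.

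The 11 lower contractile members were mostly genes of the sarcomere's filaments and Z-discs. Among myosin light chain genes, myl13 was at 128.2 and 31.1 RPKM (-2.01), myl2b at 171.2 and 45.4 RPKM (-1.89) and myl2a at 12.9 and 3.28 RPKM (-1.70). The light chain kinase gene mylk4a was at 12.4 and 2.62 RPKM (-1.89), and smyd2b, a methyltransferase gene like smyd1, at 73.3 and 29.4 RPKM (-1.29). The Z-disc protein genes synpo2b and synpo2la were at 21.9 and 37.5 RPKM at 23 °C against 6.65 and 12.3 RPKM at 28 °C, the tropomyosin gene tpm3 at 30.65 and 10.9 RPKM (-1.42) and the alpha-actinin gene actn2b at 7.10 and 3.00 RPKM (-1.02). In 6 of these 11 genes the 23 °C library held the highest value of the 4, against 68 of all 321 lower members (21.2%). Such a peak needs a negative fold, and 230 of the 1740 members with a negative fold had it. In these 6 each library up to 23 °C was above the one before, and the 28 °C value was below that at 12 °C, as in myl2b (92.6, 152.1, 171.2 and 45.4 RPKM), tpm3 (13.7, 22.01, 30.65 and 10.9 RPKM) and mybpc3, a myosin-binding protein (1.18, 2.46, 3.16 and 0.881 RPKM). Since the 23 °C library enters both steps, a high value in it alone can make it the highest of the 4. Such a value would also place the 23 °C library above the cooler ones, which is part of the order described for these 6 genes. Whether a high 23 °C value accounts for that order was not tested, nor was the place of the 28 °C values below those at 12 °C. The actin genes acta1a (417.1 and 308.9 RPKM, -0.43) and actc1a (219.9 and 125.5 RPKM, -0.80) had negative folds under 2-fold in size, as had mylpf (-0.33).

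Genes of calcium handling and membrane excitation had 10 lower and 2 higher members of 28, with a median log2 fold of -0.88, and 26 of the 28 folds were negative. After median scaling 21 were lower, and the 1 that was higher was atp2a1l, listed at 0 at 23 °C. The calcium channel subunit gene cacng6 was at 13.3 and 1.77 RPKM (-2.37), and the inward rectifier potassium channel gene kcnj12b at 6.86 and 0.781 RPKM (-2.14). A calcium pump gene, atp2a1, was at 34.7 and 8.88 RPKM (-1.85), and sln, encoding sarcolipin, a small inhibitor of that pump, at 20.1 and 5.45 RPKM (-1.71). The muscle chloride channel gene clcn1 was at 3.52 and 0.663 RPKM (-1.44) and the muscle sodium channel gene scn4a at 11.9 and 4.59 RPKM (-1.21). Acetylcholine receptor subunits of the nerve-muscle junction were among the lower members too, with chrnd at 19.1 and 8.69 RPKM and 2 rows named chrna1 at 32.7 and 16.85 RPKM at 23 °C against 13.4 and 5.67 RPKM at 28 °C. Their partners chrnb1 and chrne had folds of -0.87 and -0.58. In 15 of the 28 genes each library was below the next cooler one. This order needs a negative fold, and 989 of the 1740 members with a negative fold held it. The 2 higher members were atp2a1l, which rests on its listed 0, and the pump gene atp2a2b, at 1.26 and 5.515 RPKM (1.53).

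Muscle regulators and growth signals had 10 lower and 2 higher members of 23 (median -0.87), and 14 lower and 1 higher after median scaling. The phosphoinositide 3-kinase subunit gene pik3r1 was at 24.0 and 3.39 RPKM (-2.51), the muscle splicing factor gene rbfox1l at 72.9 and 12.1 RPKM (-2.50) and deptor, an inhibitor of the growth kinase mTOR, at 4.4 and 0.666 RPKM (-1.70). The translation repressor gene eif4ebp3 was at 113.1 and 37.5 RPKM (-1.57). Lower transcription factor and cofactor genes of muscle included sox6 (3.15 and 0.707 RPKM), eya4 (9.44 and 3.63 RPKM), six2 (44.7 and 20.3 RPKM) and vgll2b (3.84 and 1.32 RPKM). The differentiation factor gene myog was at 7.06 and 4.90 RPKM (-0.45). The higher members were irs2, an adaptor of insulin signalling (0.463 and 4.77 RPKM, 1.98), and igfbp1a, a binding protein of insulin-like growth factors that is also in the liver list (0.186 and 1.91 RPKM). Both lay under 1 RPKM at 23 °C and met the minimum through the 28 °C library. The same descending order was found in 14 of the 23 genes, of which 19 had negative folds.

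**Figure D4:**
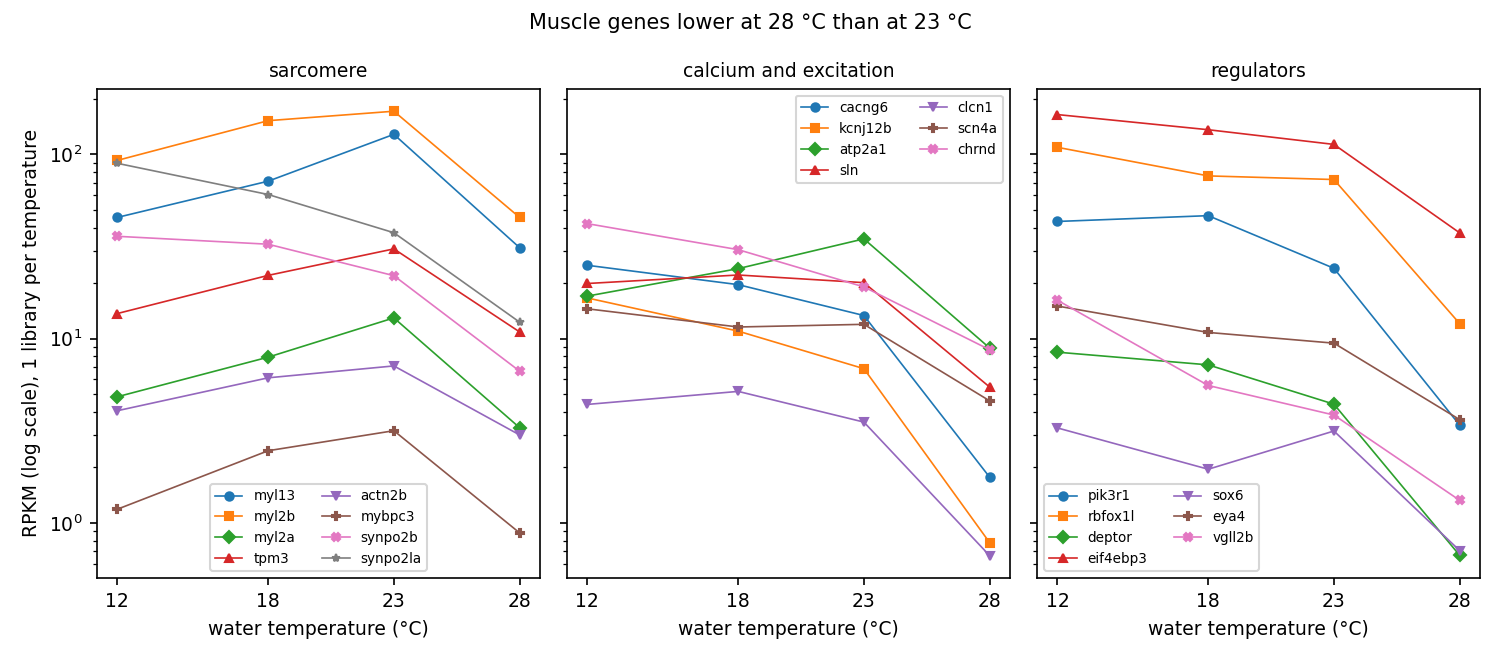
RPKM (vertical, log scale) of muscle genes at least 2-fold lower at 28 °C than at 23 °C, at 4 water temperatures (horizontal), 1 library per point. Light chain genes such as myl2b are highest at 23 °C, at 171.2 RPKM, while deptor is lower in each warmer library, with 0.666 RPKM at 28 °C.

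Genes of the endoplasmic reticulum stress response had 28 higher and 0 lower members of 33 (median log2 fold 1.45), and all 33 folds lay above the median of all members. After median scaling 12 were higher and 0 lower, and 3 of the 33 lay under 1 RPKM at 23 °C. The members hyou1, hsp90b1 and dnajc3 also count in the chaperone lists. The lumenal hsp70 gene hspa5 was at 13.99 and 255.0 RPKM (4.09). The transcription factor gene atf3 was at 1.62 and 21.2 RPKM (3.08), the disulfide oxidase gene ero1a at 0.906 and 10.8 RPKM (2.62) and creld2, a folding factor gene of the lumen, at 1.17 and 11.3 RPKM (2.50). The disulfide isomerases pdia4 and pdia6 were at 7.43 and 12.7 RPKM at 23 °C against 36.5 and 57.8 RPKM at 28 °C. Among the sensors, eif2ak3, a kinase that slows translation, was at 1.43 and 7.08 RPKM (1.73), and atf6 at 2.49 and 7.59 RPKM (1.3). The signalling factor genes xbp1 (23.2 and 61.3 RPKM), ddit3 (10.5 and 30.8 RPKM), atf4a (66.6 and 142.8 RPKM) and atf4b (24.97 and 60.6 RPKM) had folds between 1.09 and 1.47. The most abundant member at 28 °C was chac1, a glutathione-degrading enzyme gene, at 169.4 and 416.6 RPKM (1.29).

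The vesicle trafficking list, which holds genes of transport between the endoplasmic reticulum and the Golgi and of other routes, had 33 higher and 0 lower members of 44 (median 1.28, and 12 higher after median scaling), and 4 of the 44 lay under 1 RPKM at 23 °C. The cargo lectin genes lman2lb and lman2la were at 3.19 and 0.983 RPKM at 23 °C against 33.97 and 14.7 RPKM at 28 °C (3.06 and 2.99), and the membrane fusion gene stx5 at 2.91 and 25.8 RPKM (2.78). Coat genes of vesicles leaving the endoplasmic reticulum were higher as well, with sec23b at 1.63 and 10.6 RPKM, sec24d at 1.58 and 7.69 RPKM and sec13 at 10.3 and 32.6 RPKM, and so were coat genes of the return path such as copb2 (6.48 and 24.3 RPKM). The 2 members with negative folds were trappc11 (3.59 and 2.37 RPKM) and rab40b (2.09 and 1.05 RPKM).

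Collagen maturation enzymes had 9 higher and 1 lower member of 15 (median 1.04, and 6 higher and 1 lower after median scaling). The extracellular matrix list, which also holds proteases and their inhibitors, had 3 higher and 2 lower members of 13. Its median was -0.34, with 2 higher and 4 lower after median scaling. Over all members 35.6% were higher and 7.89% lower as deposited. The lysyl hydroxylase gene plod3 was at 10.4 and 294.7 RPKM (4.70), and colgalt1, which adds sugar to the residues it makes, at 1.95 and 47.4 RPKM (4.04). For the prolyl hydroxylase subunit genes p4ha2 and p4ha1 the values were 9.88 and 6.38 RPKM at 23 °C against 83.3 and 40.98 RPKM at 28 °C. For serpinh1b, a chaperone of collagen, the values were 1.74, 7.73, 36.0 and 168.6 RPKM in order of temperature, while its paralogue serpinh1a was at 5.92 and 6.71 RPKM over the last step (0.16). The lower member was the prolyl isomerase gene fkbp10b (4.90 and 1.05 RPKM, -1.53). Among matrix genes, mfap5 (11.98 and 3.41 RPKM, -1.56) and postnb (27.8 and 12.6 RPKM, -1.08) were lower, and the laminin chain gene lamc1 (8.81 and 32.45 RPKM, 1.77), the protease inhibitor gene timp2b (12.4 and 43.5 RPKM, 1.73) and lama5 (0.440 and 2.11 RPKM) were higher. The paralogue timp2a was at 33.2 and 19.1 RPKM (-0.77), opposite in sign to timp2b.

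Immediate early genes, which encode transcription factors and feedback regulators switched on within minutes of a stimulus, had 28 higher and 0 lower members of 31 (median 2.0, and 22 higher after median scaling). Of the 31, 8 lay under 1 RPKM at 23 °C and met the minimum through the 28 °C library. The AP-1 subunit gene fosl1 was at 0.111 RPKM at 23 °C against 32.2 RPKM at 28 °C (4.90), with 0.0546 and 0.0315 RPKM at 12 and 18 °C. Another AP-1 subunit gene, junbb, was at 2.11 and 47.8 RPKM (3.97), the nuclear regulator gene ier2a at 2.82 and 51.6 RPKM (3.79) and the zinc finger factor gene egr1 at 4.63 and 68.0 RPKM (3.62). The MAP kinase phosphatase genes dusp5, dusp2 and dusp6, which switch the kinases off, were at 1.17, 0.159 and 6.16 RPKM at 23 °C against 26.9, 3.63 and 16.9 RPKM at 28 °C. A further phosphatase, dusp1, had the highest level of the list but a fold under 2 (42.3 and 72.7 RPKM, 0.77). The cortisol-responsive klf9 (2.13 and 3.57 RPKM) and the clock gene per1b (1.61 and 1.24 RPKM) also stayed within 2-fold. Over the wider MAP kinase list 8 of 30 members were higher, a smaller share than the 35.6% over all members, and 2 lower, and the median of 0.08 became -0.38 after median scaling. Apart from the phosphatases, its higher members included mknk1, a kinase of the translation factor eIF4E (1.62 and 20.8 RPKM, 3.06), and rps6ka3b (0.705 and 7.28 RPKM, 2.28). The lower ones included the kinase gene map2k6 (5.755 and 1.87 RPKM).

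Glycolysis had 11 higher and 2 lower members of 14 (median 1.44, and 5 and 2 after median scaling), with 2 under 1 RPKM at 23 °C. The regulator gene pfkfb3, whose enzyme makes an activator of phosphofructokinase, was at 0.741 and 16.8 RPKM (3.35), the entry enzyme gene hk1 at 1.85 and 13.9 RPKM (2.38), gapdhs at 24.9 and 102.1 RPKM (1.99) and the aldolase gene aldoc at 11.3 and 46.8 RPKM (1.95). Other members of the same regulator family were lower, with pfkfb1 at 134 and 49.8 RPKM (-1.41) and pfkfb2 at 9.19 and 3.57 RPKM (-1.16). Outside the list, pfkfb4b was at 20.7 and 3.49 RPKM (-2.27), so within this enzyme family 1 gene was higher and 3 were lower.

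Oxygen-sensing and hypoxia target genes had 10 higher and 0 lower members of 12 (median 1.81, and 7 higher and 1 lower after median scaling), with 2 under 1 RPKM at 23 °C. Of the higher ones, p4ha1 and p4ha2 also count in the collagen list and igfbp1a among the muscle regulators. In the same way ddit4 also counts in the glucocorticoid list and hmox1a in the antioxidant list. The glucose transporter gene slc2a1b was at 9.76 and 73.8 RPKM (2.80), the mTOR inhibitor gene ddit4 at 7.24 and 34.4 RPKM (2.1), the mitophagy receptor gene bnip3 at 14.5 and 65.5 RPKM (2.1) and the stress gene ndrg1 at 19.4 and 79.1 RPKM (1.97). Among the oxygen-sensing hydroxylases, egln2 was at 34.99 and 90.7 RPKM (1.35) and egln1 at 70.18 and 48.05 RPKM (-0.54), so egln1 was the more abundant at 23 °C and egln2 at 28 °C. The 3 respiratory chain members that the selected table holds were sdhb (5.76 and 24.2 RPKM, 1.90), cox6b1 (40.13 and 80.45 RPKM, 0.99) and uqcr11 (17.4 and 33.97 RPKM, 0.92), of 69 RefSeq genes that match the list.

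Cell death and growth arrest genes had 9 higher and 0 lower members of 15 (median 1.16, and 6 and 2 after median scaling), with 2 under 1 RPKM at 23 °C. The initiator caspase gene casp8 was at 2.46 and 34.6 RPKM (3.36), the pore-forming bax at 1.81 and 9.02 RPKM (1.84) and the growth arrest gene gadd45g at 3.31 and 45.0 RPKM (3.42). Genes that restrain death were higher too, with birc2, a caspase pathway inhibitor, at 4.76 and 42.3 RPKM (2.91), bcl2l10 at 0.984 and 8.22 RPKM (2.22), bcl2l1 at 2.12 and 7.89 RPKM (1.51) and mcl1b at 768 and 1655 RPKM (1.11). The sestrin gene sesn1 was at 14.1 and 6.62 RPKM (-0.99), and the cell cycle inhibitor gene cdkn1a at 1.75 and 1.07 RPKM (-0.41). Of 9 antioxidant members 6 were higher and 0 lower (median 1.49, and 4 higher after median scaling). Among them prdx1, a peroxide-reducing enzyme gene, was at 2.94 and 10.04 RPKM (1.49), and the stress-responsive transcription factors nfe2l1 and nfe2l2 were at 9.53 and 2.72 RPKM at 23 °C against 40.7 and 7.58 RPKM at 28 °C. The selenium carrier gene selenop was at 217.7 and 213.4 RPKM.

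Autophagy and lysosome genes had folds of both signs. The autophagy receptor gene sqstm1, which links ubiquitin-tagged cargo to the autophagy membrane, was at 9.08 and 137.6 RPKM (3.78), the lysosomal membrane gene lamp1b at 22.3 and 138.5 RPKM (2.58), the segregase gene vcp at 10.6 and 49.3 RPKM (2.12) and the lysosomal protease gene ctsd at 39.3 and 103.6 RPKM (1.38). With atg5 (2.02 and 5.83 RPKM), these were the 5 higher of 16 autophagy and lysosome members, and 0 were lower. The share of higher members was thus under the 35.6% over all members. The other 11 members comprised atg7 (0.65) and 10 genes with negative folds under 2-fold in size, among them the membrane lipid transporters atg9a (7.73 and 3.63 RPKM, -0.91) and atg9b (10.4 and 6.61 RPKM, -0.59), the lysosomal membrane gene lamp2 (22.3 and 18.4 RPKM, -0.27) and the starter kinases ulk1 (1.69 and 0.878 RPKM, -0.52) and ulk2 (2.18 and 1.51 RPKM, -0.34). The list median was -0.26, and 3 members were higher and 3 lower after median scaling. Ubiquitin itself, from ubb, was at 361.1 and 1405 RPKM (1.96). The ubiquitin ligase gene herc4 was at 5.41 and 151.9 RPKM (4.57), the deubiquitinase gene otud1 at 1.02 and 14.4 RPKM (2.93), and uba3, an activating enzyme gene of a ubiquitin-like protein, at 5.16 and 27.5 RPKM (2.21). Over 39 members of the ubiquitin list 12 were higher, a smaller share than the 35.6% over all members, and 1, usp25 (37.7 and 14.1 RPKM, -1.35), was lower, while the median of 0.01 became -0.46 after median scaling. The muscle wasting ligase gene fbxo32 was at 12.7 and 17.2 RPKM (0.41), after 103.4 RPKM at 12 °C, and its regulator foxo3b at 5.21 and 1.78 RPKM (-1.16). Over all 10 members of the muscle breakdown list 3 were higher and 1 was lower, and over the 15 of the glucocorticoid list 3 and 1, with medians whose sign turned under median scaling. In both lists the share of higher members was under 35.6%. Of 4 proteasome members psmd4a (23.3 and 100.7 RPKM) and psmd8 (3.55 and 13.2 RPKM) were higher.

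**Figure D5:**
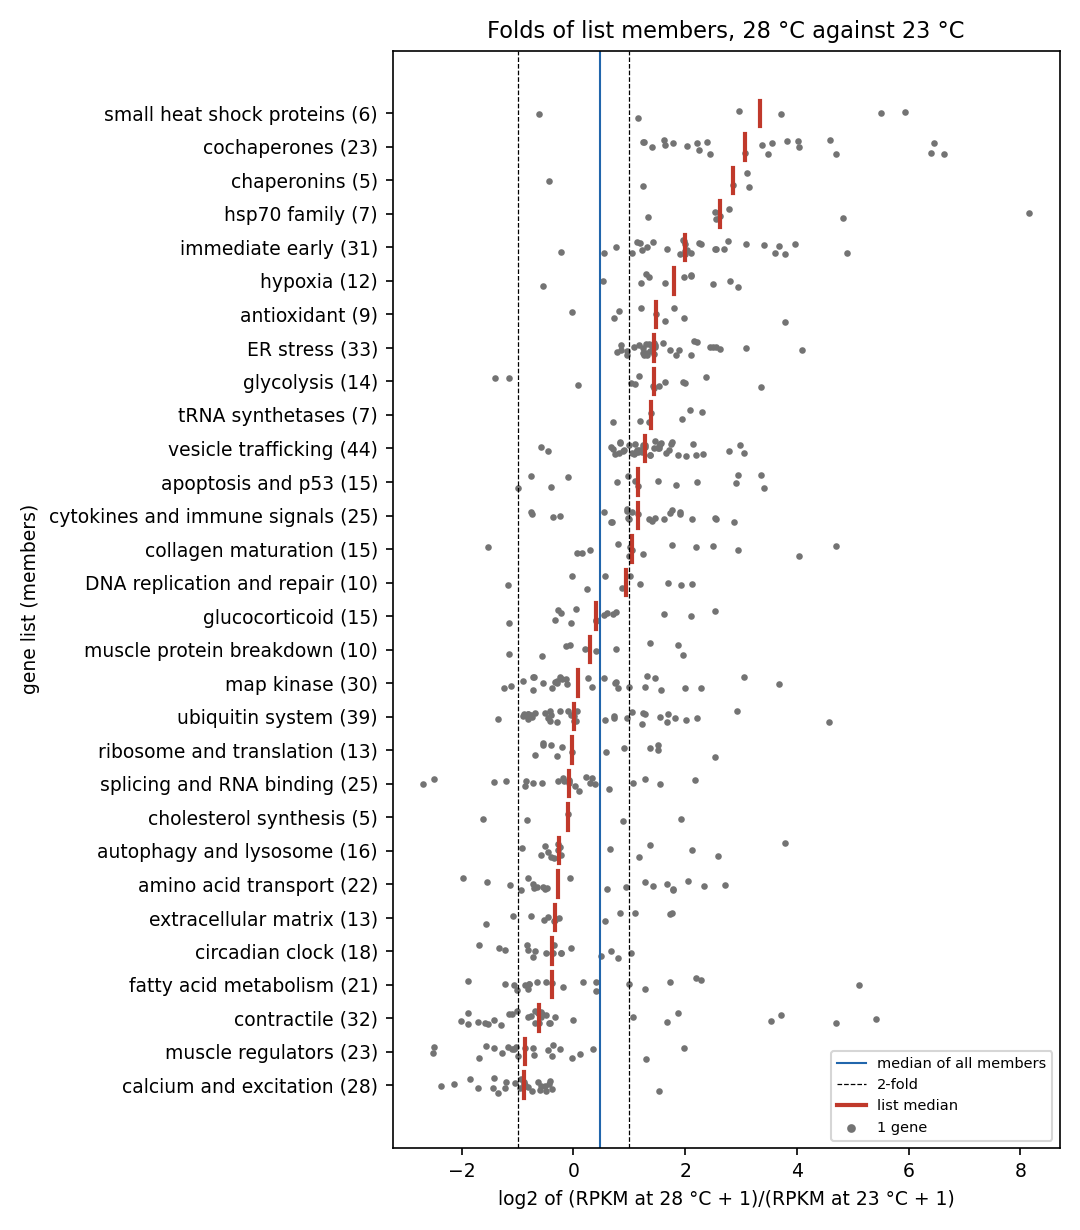
Log2 folds of RPKM + 1 between 28 and 23 °C (horizontal) for the members of each pathway list with 5 or more members (vertical, number of members in brackets), 1 point per gene, red bars at list medians, a blue line at the median of all members (0.47) and dashed lines at 2-fold. Chaperone lists have medians of 2.63 or more, while calcium and excitation (-0.88), muscle regulators (-0.87) and contractile genes (-0.62) lie at the other end; atp2a1l, listed at 0 at 23 °C, is not drawn.

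Amino acid transport and metabolism had 8 higher and 3 lower members of 22 (median -0.27, and 6 and 7 after median scaling), a share of higher members near the 35.6% over all members, and 4 of the 22 lay under 1 RPKM at 23 °C. The highest folds were those of the arginase gene arg2 at 4.01 and 31.98 RPKM (2.72), asl, whose enzyme makes arginine, at 11.8 and 63.7 RPKM (2.34) and the polyamine enzyme gene odc1 at 0.442 and 4.94 RPKM (2.04). The other arginase gene, arg1, was at 3.27 and 1.93 RPKM (-0.54). The arg2 values at 12 and 18 °C were 36.0 and 7.72 RPKM, so its level at 28 °C was close to that at 12 °C. A similar course was shown by slc38a2, a neutral amino acid carrier gene, at 7.07, 6.07, 1.47 and 7.56 RPKM from 12 to 28 °C. The creatine transporter gene slc6a8 was at 39.3 and 106.8 RPKM (1.42). Other carriers were lower: slc7a8a was at 11.8 and 2.25 RPKM (-1.97), slc38a4 at 5.23 and 1.125 RPKM (-1.55) and slc7a1a at 9.06 and 3.60 RPKM (-1.13). Of 7 enzyme genes that load amino acids onto transfer RNA 6 were higher and 0 lower (median 1.38, and 3 higher after median scaling), led by gars1 (4.04 and 23.95 RPKM, 2.31) and tars1 (8.47 and 39.2 RPKM, 2.09). Ribosome and translation factors had 4 higher and 0 lower members of 13, with the helicase gene ddx10 at 1.23 and 11.9 RPKM (2.53), and their median of -0.02 became -0.59 after median scaling. For these factors the share of higher members lay under the 35.6% over all members.

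Lipid genes included a few large folds on either side of a median of -0.38, with 5 higher and 4 lower members of 21 (4 and 9 after median scaling). The shares over all members were 35.6% higher and 7.89% lower as deposited. Of the 5 higher members, thrsp, lpin2 and ucp1 lay under 1 RPKM at 23 °C and met the minimum through the 28 °C library. The fatty acid desaturase gene scd was at 4.73 and 197.3 RPKM (5.11), after 6.26 and 5.39 RPKM at 12 and 18 °C, and the lipid droplet coat gene plin2 at 1.48 and 10.3 RPKM (2.19). The uncoupling protein gene ucp1 was at 0.199 and 1.92 RPKM, but at 25.0 RPKM in the 18 °C library that was high in liver markers, and thrsp was listed at 0 at 23 °C and stood at 73.7 RPKM at 18 °C. Lower members were fabp7a, a fatty acid carrier gene (34.6 and 8.58 RPKM, -1.90), the fat synthesis gene dgat2 (5.455 and 1.76 RPKM, -1.22), cpt1b, the muscle gate to fatty acid oxidation (7.16 and 2.895 RPKM, -1.07), and gpam (8.99 and 3.96 RPKM, -1.01). In sterol synthesis fdft1, which commits carbon to sterols, was at 7.27 and 1.69 RPKM (-1.62) and pmvk at 1.90 and 10.1 RPKM (1.93).

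Clock genes had 1 higher and 3 lower members of 18 (median -0.38), and 0 higher and 8 lower after median scaling. The lower ones were rorcb (17.4 and 4.71 RPKM, -1.69), rorca (2.88 and 0.533 RPKM, -1.34), both nuclear receptors that drive clock genes, and the output factor dbpb (3.50 and 0.935 RPKM, -1.22). The repressor gene nfil3 was at 2.23 and 5.63 RPKM (1.04), while its relatives nfil3-6 and nfil3-2 were at 50.2 and 2.24 RPKM at 23 °C against 48.6 and 0.827 RPKM at 28 °C. The times of day of the samples are not given in the labels. Splicing and RNA-binding genes had 4 higher and 4 lower members of 25 (median -0.08, and 2 and 8 after median scaling), beside 35.6% higher and 7.89% lower over all members. The splicing kinase genes clk2b (8.13 and 0.412 RPKM, -2.69) and clk4b (63.4 and 26.9 RPKM, -1.21) and a row named mbnl1 (8.64 and 2.58 RPKM, -1.43) were lower along with rbfox1l, and the core splicing factor gene prpf6 (2.55 and 15.0 RPKM, 2.17) led the higher ones. The cold-inducible cirbp was at 110.8 and 91.2 RPKM (-0.28).

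Cytokine and immune signalling genes had 15 higher and 0 lower members of 25 (median 1.16, and 9 and 2 after median scaling), and 10 of the 25 lay under 1 RPKM at 23 °C and met the minimum through the 28 °C library. The signalling factor gene stat6 was at 2.86 and 27.5 RPKM (2.88), the chemokine receptor gene cxcr4 at 1.46 and 13.4 RPKM (2.55), cebpb, a transcription factor of inflammation, at 4.08 and 28.5 RPKM (2.54) and irf5 at 2.39 and 13.8 RPKM (2.13). White cell markers were higher beside them, with the B cell receptor chain genes cd79a (0.0765 and 6.21 RPKM) and cd79b (0.779 and 6.05 RPKM). The 12 °C library held 2.28 and 3.71 RPKM of them and the 18 °C library 0.199 and 0.272 RPKM, so both were lower at 18 and 23 °C than at 12 and 28 °C. Whether the number of white cells in the sampled tissue differed was not tested. Of 50 DNA replication and repair rows 10 were members, 1 of them through the 28 °C library alone. Among these 10, 5 were higher and 1 lower (3 and 1 after median scaling), beside 35.6% and 7.89% over all members. The sliding clamp gene pcna was at 10.9 and 43.8 RPKM (1.92). The gene tk1, whose enzyme supplies a DNA building block, was at 5.31 and 1.81 RPKM (-1.17).

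Of the 15 highest folds among symbol-bearing genes that averaged 5 RPKM or more, 9 were in the chaperone lists. The remaining ones were smyd1, scd, dnaja, fosl1 and plod3, described above, and rtn4rl2b, a relative of the Nogo receptor gene, at 0.0265 RPKM at 23 °C against 48.8 RPKM at 28 °C (5.60). The 12 and 18 °C values of rtn4rl2b were 0.130 and 0.104 RPKM, so it was detectable in all 4 libraries. Of the 15 lowest, sbk3, a kinase gene, came first at 12.9 and 0.623 RPKM (-3.09), followed by asb10, an adaptor of ubiquitin ligases, at 20.0 and 2.26 RPKM (-2.69). Genes outside the lists with folds between -1.90 and -2.12 were the vesicle protein gene syngr2 (30.8 and 6.31 RPKM), phtf2 (15.2 and 2.77 RPKM), nppcl2, a natriuretic peptide gene (11.97 and 2.30 RPKM), glra4a, a glycine receptor subunit gene (61.4 and 14.9 RPKM), the death receptor gene tnfrsf21 (12.9 and 2.61 RPKM) and nudt4b (10.2 and 1.99 RPKM). The course of nppcl2 was a single high value at 23 °C, after 2.08 and 2.16 RPKM at 12 and 18 °C, so its fold rests on that library. By difference in RPKM rather than fold, the genes with a symbol furthest below 23 °C were mylpf, pvalb1 and the mitochondrial ATP synthase subunit gene ATP8 (3427 and 2348 RPKM), all with folds under 2-fold in size. Among members above 0 in both libraries the largest fold belonged to a gene with no symbol, LOC109626317, at 2.36 and 2121 RPKM (9.30).

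The course over the cooler libraries differed among the members counted at the last step. Of the 1450 higher members, 1327 (91.5%) had the highest value of the 4 libraries at 28 °C and 1075 were at least 2-fold above the highest cooler library. A further 105 were highest at 18 °C and 18 at 12 °C. In 246 of the 1450 the values ascended over 12, 18 and 23 °C, in 320 they descended, and in 562 the 23 °C library held the lowest value of the 4. A lowest value at 23 °C needs a positive fold, and 871 of the 2330 members with a positive fold had it, a share near that of the higher members. Of the 321 lower members, 312 (97.2%) had the lowest value at 28 °C, and in 158 (49.2%) the values descended over 12, 18 and 23 °C. A descent over all 4 libraries was found in 989 of the 1740 members with a negative fold, a larger share. An ascent over all 4 was found in 507 of the 2330 with a positive fold, a larger share than 246 of 1450. For 28 °C values highest or lowest of the 4, and for the 320, no share over all members is given here. These orders are shaped by the selection of the table through the 12 °C library and by the 23 °C value that enters both steps, and are given as descriptions. Of the cluster numbers in the authors' deposited table, number 4 was carried by 1328 of the 1450 higher members and number 1 by 118, while 251 of the 321 lower members carried number 2 and 64 number 6. Over all 4070 members 1846 carried number 4, 209 number 1, 1570 number 2 and 116 number 6. The numbers belong to the authors' table of these same libraries and are not independent of the folds.

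Of 107 members with a noncoding accession 35 (32.7%) were higher and 8 (7.48%) lower, and of 104 with no accession 43 (41.3%) were higher and 6 (5.77%) lower. The 2768 members with a symbol included 988 higher and 206 lower, and the 1302 without one 462 and 115. Over all 4070 members 35.6% were higher and 7.89% lower, and these classes lay near those shares. Listed at exactly 0 were 15 members at 23 °C and 2 at 28 °C. Besides atp2a1l they included vstm5 (25.98 RPKM at 28 °C, and listed at 0 at 12 °C too), the adrenergic receptor gene adra2b (11.4 RPKM) and ngs (10.99 RPKM), for which no fold is given. At the lower limit of the membership rule, the members just inside were pgap1 (1.27 and 0.728 RPKM), tnpo1 (1.298 and 0.703 RPKM) and sdccag3 (1.14 and 0.859 RPKM), and the genes just outside included ttc23 (0.533 and 1.46 RPKM) and p2ry8 (0.570 and 1.42 RPKM).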

How the data were processed

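RNA of muscle was sequenced by the authors, and the deposited table gives RPKM values, per the file headers, in 1 column per temperature for the 4 muscle samples of series C. Per the submitters' processing notes, which list no versions, TopHat2 and Cufflinks were used. For genome build and annotation, nothing is given in the sources used here. The other 20 samples were not analysed here. The table also holds 3 columns of the authors' comparisons with 12 °C, headed log2 per the file headers. As read from the deposited values they are natural log ratios: in 11641 and 11633 of 11646 rows for 23 and 28 °C each value is a constant away from the logged RPKM ratio to base e (RPKM floored at 0.01), within 0.00001. All 11646 rows are at least 2-fold from 12 °C in 1 or more of them. The authors' cluster numbers (other values, 1 per row) were used as deposited.

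RefSeq's genes of assembly ASM2471397v2 supplied names only: 5836 of 7526 numbered gene IDs matched, which gave 2788 of them a symbol. In all, 6908 rows and 2768 members have a symbol, and 38 members share theirs with another member. Absolute depth is unknown. Among 1377 rows under 0.1 RPKM and above 0 in both libraries, the commonest ratio near 1 was that of a 28 °C library 1.032 times as deep as the 23 °C library (90 of 355 ratios between 0.9 and 1.12).

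Folds were log2((RPKM + 1)/(RPKM + 1)) and were called from 2-fold on, with Python 3.11.15, numpy 2.4.6 and pandas 2.3.3. The rule was run on simulated folds without noise, which checks its arithmetic and not the calls in these data. With 1 library a side there is no test and no p-value. The members and the 43 gene lists were chosen with earlier results of these data known. Lists overlap, so a gene can count in more than 1 of them, as unc45b does among cochaperones and contractile genes. Genes were named by rule: the 15 highest and 15 lowest folds with a mean of at least 5 RPKM, the 15 largest differences in RPKM, and up to 4 members at each end and the 2 most abundant of each list. The 3 members just inside and 3 genes just outside the minimum were named too. A few genes that the rule names are not reported here. Further list members, genes listed at 0 and the gene without a symbol were named after their values were seen. Alternatives were a pseudocount of 0.1, a minimum mean of 5 RPKM or none, median and authors' scaling, and leaving out rows at 0, liver and pancreas markers or rows high at 18 °C. Promoter sequences were not used here.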

Additional observations from a re-analysis of the deposited data

Results flagged for a closer look

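The summed RPKM of the liver markers in the 18 °C library, which does not enter the comparison, was 5934 against 163.6 at 12 °C, 120.8 at 23 °C and 698.7 at 28 °C, a signal outside the compared libraries and above the 12 °C reference. The summed RPKM of the pancreas markers in the same library was 248.3, against 15.6, 20.3 and 55.4 RPKM at 12, 23 and 28 °C, and was flagged for the same reason. Both sums were also larger at 28 °C than at 23 °C, and their part in the comparison was not tested.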

How the results depend on the processing

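As reported, 1450 members were higher and 321 lower, and 81.9% of those at least 2-fold apart were higher. With a pseudocount of 0.1 RPKM 1825 members were higher and 549 lower, and the higher share was 76.9%. With a minimum mean of 5 RPKM there were 738 higher and 161 lower members, out of fewer members. With the median ratio set to 1 there were 732 higher and 817 lower (47.3% higher), and with the authors' constants 906 and 667 (57.6%). Among the 502 members under 2-fold from 12 °C in the authors' 28 °C comparison, a subset chosen after seeing the data, 89 were higher and 26 lower (77.4% higher). No minimum, and leaving out rows at 0, liver and pancreas markers or rows high at 18 °C, moved neither count by over 1.5 times. Without a minimum the shares were 13.1% higher and 2.82% lower, of 11646 genes. No list median or named gene that was at least 2-fold apart changed sign under any alternative run. After median scaling 23 of 42 list medians crossed 2-fold or moved by over 1.5 times, and 11 of 42 did so with the authors' constants. The medians of the muscle protein breakdown list (0.30 to -0.21), the glucocorticoid list (0.41 to -0.07), the skin and gill markers (0.50 to -0.02) and the fibroblast markers (0.21 to -0.38) turned sign after median scaling, as did those of the MAP kinase and ubiquitin lists. No paired analysis was possible because each temperature has 1 library. With no replicates the depth and fish-to-fish spread behind any single fold are unknown.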
